A study of Mus musculus with 35 samples.

Results

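The parts by which mouse cells sense bacterial lipopolysaccharide through Toll-like receptor 4 (TLR4) were followed in RNA sequencing of hind paw skin cells. They are the receptor parts Tlr4, Ly96 and Cd14, the adaptors Myd88, Tirap and Ticam1 and the kinase homologue Irak3, with the neighbouring sensors Tlr2 and Tlr7 and the chaperone Unc93b1. The genes were chosen by symbol, as named parts of this pathway, and all 10 were found among the 22609 genes of the count tables. The data were 35 libraries of cells sorted from paw skin of C57 mice aged 8 to 16 weeks, in 3 populations. Immune cells were the CD45-positive cells of wild-type mice. Fibroblasts were sorted by a tdTomato reporter switched on by an inducible Cre under the Col1a2 promoter, and keratinocytes by the same reporter under the K5 promoter. Each population came from males given paclitaxel (PTX), from vehicle-treated males and from vehicle-treated females, so no female was given PTX. PTX, a chemotherapy drug that stabilises microtubules, was injected into the abdomen 2 times at 2 mg/kg, with paw skin collected at day 6 from the final injection. There were 4 libraries in each of the 9 groups but 1, since vehicle male keratinocytes had 3. The labels do not tie each library to its own mouse, so p-values measure the spread between these libraries, which may be technical.

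TLR4 sits on the cell surface as a complex with MD-2, the product of Ly96, which holds the lipid part of lipopolysaccharide. CD14 takes the lipid from lipopolysaccharide-binding protein and hands it to the complex. The adaptor TIRAP brings MyD88 to the receptor at the membrane, which leads through the IRAK kinases to NF-kB and inflammatory cytokines, while TRIF, the product of Ticam1, is used from endosomes and leads to interferon regulatory factors. IRAK-M, the product of Irak3, lacks effective kinase activity and restrains the MyD88 branch. TLR2 senses bacterial lipoproteins at the surface, TLR7 senses single-stranded RNA in endosomes, and UNC93B1 carries the endosomal receptors to their place. Paclitaxel can engage the mouse TLR4 complex, which is why the receptor parts are of interest in paw skin, where the drug is studied as a cause of painful neuropathy. Macrophages are the textbook carriers of most of these parts, and fibroblasts are known to answer lipopolysaccharide as well.

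Promoter sequences are shown for a sensor that was highest in immune libraries (Tlr2) and for an adaptor and a restraining gene whose counts were at least as high in fibroblast libraries (Myd88 and Irak3). They are 300 bases each, 250 before and 50 after the annotated start, on the minus strand of GRCm38.p6, from RefSeq, whose promoter table matched 5 of the 10 genes. Capitals mark a match to a searched motif. The Tlr2 sequence is chr3:83841559-83841858, the Myd88 sequence chr9:119339969-119340268 and the Irak3 sequence chr10:120202081-120202380.
Tlr2: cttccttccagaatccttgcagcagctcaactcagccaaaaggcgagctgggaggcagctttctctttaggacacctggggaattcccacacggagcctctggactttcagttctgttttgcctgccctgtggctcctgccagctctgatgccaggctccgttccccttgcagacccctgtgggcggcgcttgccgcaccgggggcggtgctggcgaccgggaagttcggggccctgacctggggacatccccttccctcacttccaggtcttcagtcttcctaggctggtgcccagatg
Myd88: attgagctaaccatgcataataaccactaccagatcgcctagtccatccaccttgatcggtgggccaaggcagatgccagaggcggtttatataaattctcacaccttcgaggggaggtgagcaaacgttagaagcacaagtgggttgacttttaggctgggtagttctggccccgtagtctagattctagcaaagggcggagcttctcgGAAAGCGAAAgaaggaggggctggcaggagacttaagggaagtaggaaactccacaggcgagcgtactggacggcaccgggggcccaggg
Irak3: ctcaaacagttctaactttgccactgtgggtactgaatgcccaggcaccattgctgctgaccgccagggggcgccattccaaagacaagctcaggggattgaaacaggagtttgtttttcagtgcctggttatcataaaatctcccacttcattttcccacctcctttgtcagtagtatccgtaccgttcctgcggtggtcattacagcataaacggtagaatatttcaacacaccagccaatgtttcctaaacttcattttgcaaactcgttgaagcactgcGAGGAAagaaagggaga
The 4 motifs were searched on both strands. The interferon response element, whose match is in capitals, was in the Myd88 promoter, with its first base 40 bases before the start (position -40), and in 3.44% of all 32851 promoters of the same length. GAGGAA, the only form searched for PU.1 and other ETS factors, was in the Irak3 promoter shown and in that of Ticam1, and in 28.3% of all promoters. The NF-kB motif, for which no other form was searched, and the AP-1 motif TGANTCA were in no promoter of the 5 genes. They were in 0.411% and 7.81% of all promoters. A lack of NF-kB sites of other forms, in the Tlr2 promoter or elsewhere, was therefore not shown. The other Irak3 promoter and those of Tlr2 and Tirap held none of the 4 in the forms searched. The motifs do not overlap one another in these sequences, and a match is a description of letters only.

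Gene counts ran from 13847475 to 18979776 in immune libraries, from 13359088 to 20809036 in fibroblast libraries and from 6518070 to 12055718 in keratinocyte libraries, except replicate 2 of the vehicle females with 988712. A marker of each sort was found in every group: Ptprc, which encodes CD45, lay between 361 and 839 CPM in immune libraries, Col1a2 between 2522 and 11003 CPM in fibroblast libraries, and Krt5 between 1193 and 8093 CPM in keratinocyte libraries. CPM are counts relative to the library's total gene count, scaled with TMM factors within each population unless another scale is named. The 4 keratinocyte libraries of PTX males stood apart, and for them keratinocyte names the sort only. Their 8 keratinocyte markers summed to 3721 to 12496 CPM, against 24100 to 29504 CPM in vehicle males, in every PTX library below the fibroblast markers. Their 8 fibroblast markers summed to 14634 to 20352 CPM, against 152 to 750 CPM in vehicle males, and their 6 pan-immune markers to 670 to 1020 CPM, against 6.66 to 39.9 CPM. Immune vehicle males also held more markers of other cells. Their fibroblast markers summed to 4377 to 9922 CPM, against 82.7 to 387 CPM in vehicle females and 236 to 1443 CPM in PTX males. Their keratinocyte markers summed to 85.9 to 2245 CPM, against 28.8 to 112 CPM in vehicle females. These males are among the resting immune libraries and are the PTX controls, and the part of these markers was not tested. Genes of middling level were often close to absent from single libraries. Of genes with a group mean of 10 to 100 CPM, 69.9% had a library under 1 CPM in the immune PTX group, against 7.7% in the immune vehicle males. The share was 72.1% in fibroblast PTX males, against 55.3% in vehicle males, and 69.4% in keratinocyte PTX males, against 79.6% in vehicle males.

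The 23 vehicle libraries show where the parts lay at rest, on a scale fitted over these libraries. Tlr4 itself was found in both immune and fibroblast libraries and was close to absent from keratinocytes. It had a lowest, median and highest value of 28.3, 41.1 and 88.1 CPM in 8 immune libraries, and of 0.252, 48.9 and 136 CPM in 8 fibroblast libraries. The fibroblast libraries were spread around the immune ones, and the ranges overlapped, with a log2 fold change of -0.17 ± 0.86 (SE; 95% interval -1.85 to 1.51; adjusted p = 0.967). In 7 keratinocyte libraries Tlr4 had 2 counts in all, with a highest value of 0.13 CPM. Pooled over libraries, the ratio of immune to keratinocyte counts, relative to library sizes scaled with TMM factors, was 1730 (95% counting interval 478 to 14300). That of fibroblast to keratinocyte counts was 1920 (530 to 15800). Both differences passed the test (adjusted p = 8.12e-06 and 7.45e-06), and neither pair of groups overlapped.

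Ly96, the partner that lets TLR4 hold its ligand, had its highest median in the immune libraries at rest. It lay at 27.2, 50.7 and 80.3 CPM (lowest, median, highest) in immune libraries, at 0, 0.138 and 32.7 CPM in fibroblast libraries and at 0, 0 and 0.173 CPM in keratinocyte libraries. Fibroblast libraries mostly had little Ly96: 6 of 8 were under 1 CPM of Ly96, and 1 of 8 was under 1 CPM of Tlr4. The exceptions for Ly96 were replicate 1 of the males with 24.1 CPM and replicate 3 of the females with 5.56 CPM on the fibroblast scale. CPM are not divided by length, and Ly96 has 632 exon bases against 5467 for Tlr4. Of genes with a group mean of 10 to 100 CPM, 23.5% in fibroblast vehicle females and 55.3% in vehicle males had a library under 1 CPM. Ly96 lay below that band, with means of 1.42 CPM in these females and 6.14 CPM in these males on the fibroblast scale. The share therefore does not describe Ly96, and a lack of Ly96 in fibroblasts was not shown. The ratio of immune to fibroblast counts was 12.8 (95% counting interval 11.6 to 14.1). The log2 fold change of 3.68 ± 1.34 did not pass (adjusted p = 0.0506), and it passed without either of these libraries (6.41, adjusted p = 0.00212, and 6.21, adjusted p = 0.00373). Against keratinocytes Ly96 was higher in immune libraries without overlap, with a ratio of 837 (327 to 3070; adjusted p = 0.000596). It was also higher in fibroblast than in keratinocyte libraries, with a ratio of 65.6 (25.4 to 242; adjusted p = 0.00874), where leaving out the same fibroblast libraries ended the call (adjusted p = 0.0602 and 0.0747). It was also lost with limma-voom (adjusted p = 0.548) and with males or females alone (adjusted p = 0.0671 and 0.172).

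Cd14, the co-receptor that loads the complex, was higher in immune libraries than in both other populations. Its lowest, median and highest values were 1277, 1726 and 2424 CPM in immune libraries, 4.07, 8.51 and 31.7 CPM in fibroblast libraries, and 1.25, 1.91 and 58.4 CPM in keratinocyte libraries. The immune libraries stood above all others by a wide margin, and those of fibroblasts and keratinocytes overlapped. The log2 fold change was 7.17 ± 0.72 against fibroblasts (adjusted p = 3.82e-08) and 8.61 ± 0.86 against keratinocytes (adjusted p = 2.64e-08). Fibroblasts over keratinocytes gave 1.43 ± 0.61 (adjusted p = 0.0748). The highest keratinocyte value came from the library with the fewest counts, and without it that difference was 2.63 (adjusted p = 0.000144). In these sorted bulk cells, fewer cells of a type and less RNA per cell cannot be told apart.

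The adaptors come next. Myd88, the common adaptor, was at 102, 179 and 278 CPM (lowest, median, highest) in immune libraries, at 164, 316 and 495 CPM in fibroblast libraries and at 0.405, 37.3 and 153 CPM in keratinocyte libraries. Immune and fibroblast libraries overlapped (log2 fold change -0.86 ± 0.63, adjusted p = 0.426). Both were higher than keratinocytes, by 2.03 ± 0.69 (adjusted p = 0.0262) and by 2.89 ± 0.72 (adjusted p = 0.00343) on the log2 scale. The immune call was lost without vehicle male keratinocyte replicate 1 (1.79, adjusted p = 0.0657) or replicate 2 (2.0, adjusted p = 0.0525), and with library totals in place of TMM factors (1.69, adjusted p = 0.0591) or with males or females alone (adjusted p = 0.205 and 0.102). Tirap, the bridge between TLR4 and MyD88, was at 4.96, 27.1 and 40.1 CPM in immune libraries, 0, 24.3 and 110.3 CPM in fibroblast libraries and 0, 0.13 and 0.347 CPM in keratinocyte libraries. Immune and fibroblast libraries overlapped again (-0.52 ± 1.15, adjusted p = 0.872). Keratinocytes had 10 Tirap counts in all, so that the ratio of immune to keratinocyte counts was 174 (94.7 to 364; adjusted p = 0.0017) and that of fibroblast to keratinocyte counts 245 (133 to 511; adjusted p = 0.00116). With vehicle males alone the immune call for Tirap was lost (adjusted p = 0.0529).

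Ticam1, which encodes the TRIF adaptor, was the member that no population set apart. It was at 16.2, 31.4 and 42.6 CPM (lowest, median, highest) in immune libraries, at 0, 13 and 63.0 CPM in fibroblast libraries and at 0.13, 32.1 and 168 CPM in keratinocyte libraries. All 3 ranges overlapped, and none of the 3 differences passed (adjusted p = 0.707 for immune over fibroblast, 0.992 for immune over keratinocyte and 0.595 for fibroblast over keratinocyte). Irak3, the restraining member, leaned towards fibroblasts. Its values were 1.85, 34.8 and 78.3 CPM in immune libraries, 131, 293 and 424 CPM in fibroblast libraries and 0, 0.132 and 102 CPM in keratinocyte libraries. Every immune library lay below every fibroblast library, and the log2 fold change of -2.84 ± 1.08 missed the threshold (adjusted p = 0.0654). It passed with DESeq2 (adjusted p = 0.0156) and with limma-voom (adjusted p = 2.75e-05). Fibroblasts were higher than keratinocytes in Irak3, by 4.36 ± 1.26 (adjusted p = 0.0106), a call lost with vehicle males alone (3.29, adjusted p = 0.24). Immune over keratinocyte libraries gave 1.52 ± 1.09 (adjusted p = 0.319), which passed without vehicle male keratinocyte replicate 2 (5.6, adjusted p = 0.00166) or vehicle female replicate 4 (4.15, adjusted p = 0.00877).

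The other sensors were also highest in immune libraries. Tlr2 was at 375, 610.4 and 1619 CPM (lowest, median, highest) in immune libraries, 1.64, 21.0 and 51.5 CPM in fibroblast libraries and 0.33, 0.647 and 1.82 CPM in keratinocyte libraries. Tlr7 was at 40.0, 103 and 191 CPM in immune libraries, and none of the other 15 vehicle libraries was above 1.03 CPM. Unc93b1, which carries TLR7, was at 901, 1334 and 1919 CPM in immune libraries, 25.5, 56.0 and 250.5 CPM in fibroblast libraries and 0.52, 1.06 and 3.39 CPM in keratinocyte libraries. For these 3 genes every immune library stood above every other. Immune over fibroblast log2 fold changes were 5.16 ± 0.58 for Tlr2, 8.13 ± 0.89 for Tlr7 and 3.90 ± 0.46 for Unc93b1 (adjusted p = 2.22e-07, 1.2e-07 and 4.59e-07). Fibroblasts were above keratinocytes in Unc93b1 (6.2 ± 0.57, adjusted p = 7e-09) and Tlr2 (4.78 ± 0.63, adjusted p = 2.55e-06), where the Tlr2 call was lost with limma-voom (4.80, adjusted p = 0.23). The Tlr7 difference between these populations rested on 42 and 7 counts (2.07 ± 0.79, adjusted p = 0.0465) and was lost in 11 of the 15 fits that left out 1 library.

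**Figure D1:**
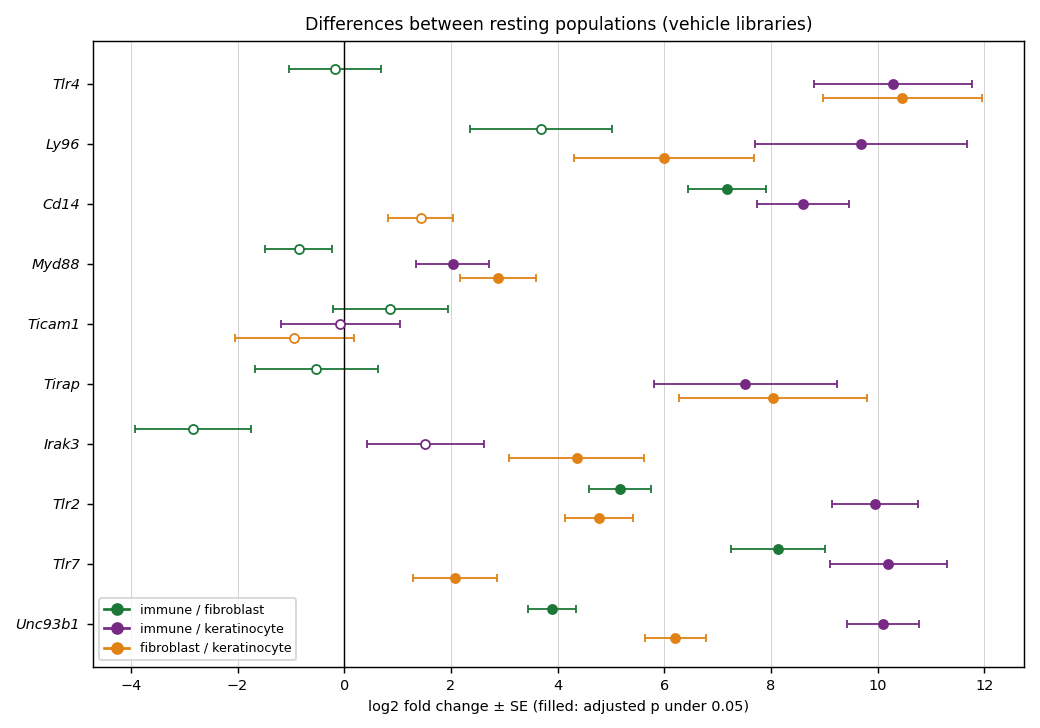
Log2 fold changes ± SE between populations at rest for the 10 genes, with immune over fibroblast, immune over keratinocyte and fibroblast over keratinocyte in separate colours and filled points where the adjusted p was under 0.05. Cd14, Tlr2, Tlr7 and Unc93b1 are the genes with a filled point for immune over fibroblast, while Tlr4, at -0.17, sits next to 0 there and near 10 against keratinocytes.

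Counted together, 4 of the 10 genes were higher and 0 lower in immune than in fibroblast libraries, where 13.3% of the 14104 genes tested were higher and 7.91% lower. Against keratinocytes 8 were higher in immune libraries (all but Ticam1 and Irak3; 23.5% of all genes) and 8 in fibroblast libraries (all but Cd14 and Ticam1; 20.6% of all genes). For fibroblasts over keratinocytes 2908 genes were higher and 1477 lower, and with library totals 2427 and 2115. The median log2 fold change of the 10 was 2.27 for immune over fibroblast, beside 0.05 over all genes tested. It was 9.15 for immune over keratinocyte, beside 0.48, and 4.57 for fibroblast over keratinocyte, beside 0.40. Divided by exon length (GENCODE M21, since the annotation used for counting is not given), immune levels ran from 1148 ± 270 CPM per kilobase for Cd14 (SD, n = 8) and 595 ± 163 for Unc93b1 down to 9.20 ± 4.0 for Tlr4 and 5.42 ± 2.67 for Tirap. In CPM per kilobase Ly96 stood at 77.9 ± 28.0 in immune libraries, above Tlr4, and at 7.92 ± 18.1 in fibroblast libraries. There Tlr4 was at 10.3 ± 8.73 and Irak3 at 93.6 ± 33.5. Before division by length, fibroblast Ly96 had a median of 0.138 CPM and a highest library of 32.7 CPM. That of Tlr4 had a median of 48.9 CPM, so the means do not show similar levels in most fibroblast libraries.

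Of the pathway around these genes, the rest of the receptor family comes first. Of 8 other Toll-like receptor genes tested, 6 were higher and 0 lower in immune than in fibroblast libraries, with a list median log2 fold change of 8.25. The RNA sensors Tlr8 (59.5 ± 28.2 CPM in immune and 0.148 ± 0.126 in fibroblast libraries, SD, n = 8 each, adjusted p = 2.32e-06) and Tlr13 (57.0 ± 28.5 and 0.166 ± 0.119 CPM, adjusted p = 4.3e-06) and the DNA sensor Tlr9 (19.3 ± 15.9 and 0.0287 ± 0.0401 CPM, adjusted p = 0.000161) had the lowest p. Ligand handling was split. Cd36, a scavenger receptor that works with TLR2, was at 1701 ± 484 CPM in immune and 13.9 ± 15.0 CPM in fibroblast libraries (adjusted p = 5.48e-10), and Ly86, the MD-1 relative of MD-2, at 241 ± 63.2 and 0.778 ± 0.512 CPM (adjusted p = 4.62e-09). Lbp, the protein that brings lipopolysaccharide to CD14, was lower in immune libraries (41.4 ± 38.6 CPM) than in fibroblast libraries (401 ± 126 CPM), with a log2 fold change of -3.78 ± 0.57 (adjusted p = 2.21e-05). In this list 3 of 6 genes were higher and 1 lower.

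Of 18 signalling genes downstream 1 was higher in immune than in fibroblast libraries and 0 were lower, beside 13.3% and 7.91% of all genes tested, with a list median log2 fold change of 0.51. It was Ticam2, the TRAM bridge between TLR4 and TRIF, at 123 ± 24.3 CPM in immune and 0.472 ± 0.44 CPM in fibroblast libraries (adjusted p = 3.32e-07). Of the 6 transcription factors Irf5 and Rel were higher, and of the 8 restraining genes Sigirr and Il1rl1. Of the 10 outputs 5 were higher in immune libraries, led by Il1b (1026 ± 320.3 and 4.86 ± 4.08 CPM, adjusted p = 3.86e-12) and Tnf (794 ± 426 and 5.80 ± 8.86 CPM, adjusted p = 6.22e-10). Il6 (84.8 ± 51.8 CPM in immune and 539.6 ± 253.6 CPM in fibroblast libraries, adjusted p = 0.000228) and the neutrophil attractant Cxcl1 (569 ± 218 and 3458 ± 1355 CPM, adjusted p = 0.0122) were lower. Of the 5 endogenous ligands 2 were higher (S100a8, S100a9) and 2 lower (Bgn, Tnc) in immune libraries. Against keratinocytes, immune libraries were higher in 7 of 8 Toll-like receptors, 5 of 6 ligand-handling genes, 5 of 18 signalling genes, 5 of 6 transcription factors, 5 of 8 restraining genes and 10 of 10 outputs. Of all genes tested 23.5% were higher, so the signalling count was near that share. Fibroblasts were higher than keratinocytes in 1, 3, 4, 3, 4 and 8 genes of the same lists, beside 20.6% of all genes tested. Here too the signalling count was near the share of all genes. Ripk1 (293 ± 127 and 0.209 ± 0.218 CPM, n = 7, adjusted p = 1.9e-12) and Ccl2 (2025 ± 748 and 0.521 ± 0.675 CPM, adjusted p = 6.86e-14) had the lowest p of their lists.

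In immune cells after PTX, Cd14 rose. Its values were 5411, 4007, 4168 and 4614 CPM in PTX males, 2302, 1723, 1465 and 1579.9 CPM in vehicle males and 2194, 1566, 2220.4 and 1190.0 CPM in vehicle females. Every PTX library stood above every vehicle library of either sex. The means were 4549.6 ± 629 CPM in PTX males and 1767 ± 371 CPM in vehicle males (SD, n = 4 each), a log2 fold change of 1.36 ± 0.22 (SE; 95% interval 0.93 to 1.79; adjusted p = 0.00661). Among all 12131 genes tested in immune cells, 0.956% were called higher and 3.11% had PTX males above vehicle males without overlap. Cd14 was the only one of the 10 members called, with 0 called lower, beside 4.56% of all genes called lower. Against the females the log2 fold change of Cd14 was 1.34 (adjusted p = 0.0183), and leaving out each library gave 1.22 to 1.45 (adjusted p 0.00906 to 0.0293). It was 1.0 with library totals in place of TMM factors (adjusted p = 0.0123). That scaling also moved the calls over all genes, to 37 higher and 607 lower, against 116 higher and 553 lower with TMM.

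Cell type markers also differed between these libraries. The 10 macrophage markers summed to 24750 to 44102 CPM in PTX males and 19880 to 28981 CPM in vehicle males, and 1 of them (Emr1, the F4/80 gene) was called higher. Mast cell markers were called higher in 7 of 8 (2958 to 8813 and 1528 to 2659 CPM summed). Dendritic and Langerhans cell markers were called higher in 3 of 8 tested. The dendritic list, which includes H2-Ab1 and Cd74, summed to 18011 to 36225 CPM in PTX males and 6546 to 10395 CPM in vehicle males. Fibroblast markers were called lower in 5 of 8 (236 to 1443 and 4377 to 9922 CPM summed), endothelial markers in 5 of 8 (0.341 to 25.2 and 104 to 572 CPM, with Kdr and Emcn at 0 in all 4 PTX libraries) and pericyte and smooth muscle markers in 5 of 8 (6.26 to 43.6 and 281 to 2348 CPM). Vehicle females had sums of 21375 to 39492 CPM for macrophage and 5924 to 7747 CPM for mast cell markers. Their dendritic list summed to 7655 to 13345 CPM. Their fibroblast, endothelial and pericyte lists summed to 82.7 to 387, 47.6 to 135 and 180 to 769.5 CPM. In mast cell and fibroblast markers the females overlapped PTX males and not vehicle males. In dendritic, endothelial and pericyte markers they overlapped vehicle males and not PTX males. The part of these markers in the result for Cd14 was not tested. As a measurement, log2(CPM + 1) of Cd14 minus the mean over the macrophage markers of the same library was 1.5 ± 0.44 in PTX males, 0.53 ± 0.08 in vehicle males and 0.03 ± 0.56 in vehicle females (SD, n = 4 each). The PTX libraries overlapped with neither vehicle group, with differences of 0.97 from males and 1.47 from females. Against the pan-immune markers the differences were 0.77 and 0.94 and the groups overlapped.

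**Figure D2:**
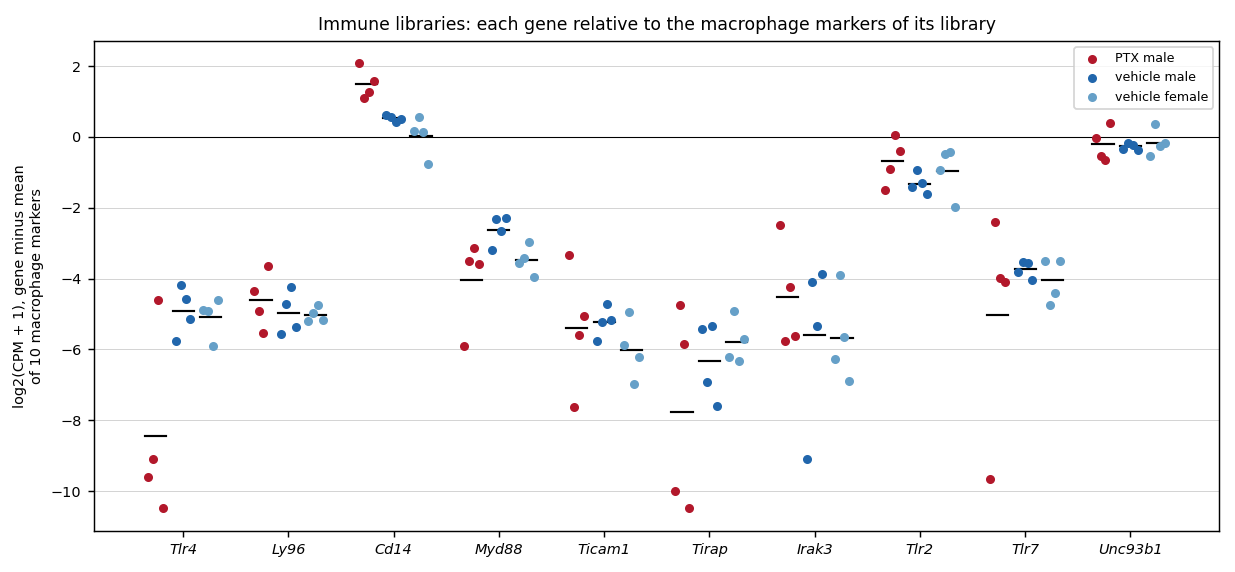
Log2(CPM + 1) of each gene minus the mean of the 10 macrophage markers in the same immune library, with 1 point for each library of PTX males, vehicle males and vehicle females and a bar at each group mean. Cd14 is the gene whose 4 PTX points, with a mean of 1.5, lie above all 8 vehicle points.

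Tlr4 did not pass in immune cells, and its PTX libraries disagreed. They held 0.650, 2.41, 70.7 and 0.0852 CPM in PTX males, 26.8, 63.6, 44.3 and 30.9 CPM in vehicle males and 64.8, 33.9, 32.9 and 82.0 CPM in vehicle females. Of the 4 PTX libraries, 3 were below every vehicle library, and replicate 3 was above all vehicle males. The log2 fold change was -1.16 ± 1.37 (95% interval -3.85 to 1.53; adjusted p = 0.826). Without replicate 3 it was -5.27 (adjusted p = 0.0229). Near-empty libraries were common in this group (69.9% of genes of middling level, above), and the summed fibroblast markers of replicate 3 were the highest of the 4 PTX libraries (1443 CPM, against 236, 371 and 1096 CPM in replicates 1, 2 and 4). Their part in the result was not tested. Ly96 was at 62.1, 61.1, 36.6 and 123 CPM in PTX males, against 30.9, 43.6, 56.3 and 26.2 CPM in vehicle males, with overlap (0.85 ± 0.59, adjusted p = 0.566).

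Tlr2 was at 452, 995, 1819 and 1190.3 CPM in PTX males, 560.0, 601, 440.0 and 361 CPM in vehicle males and 1023, 751, 1512 and 513 CPM in vehicle females. The PTX libraries other than replicate 1 were above all vehicle males, and the PTX libraries overlapped the females. The log2 fold change of 1.18 ± 0.39 did not pass (adjusted p = 0.0952), and it passed without PTX replicate 1 (1.42, adjusted p = 0.0337) and with DESeq2 (1.24, adjusted p = 0.0283). Unc93b1 was at 1250.2, 1299, 1109 and 2029.5 CPM in PTX males, against 1192, 1039.6, 930.4 and 868 CPM in vehicle males, with overlap (0.50 ± 0.21, adjusted p = 0.185). Tlr7 was at 0.569, 352, 109 and 91.0 CPM in PTX males, against 106, 98.9, 91.7 and 66.4 CPM in vehicle males, so that the PTX libraries held both the lowest and the highest value (0.61 ± 0.99, adjusted p = 0.899).

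The adaptors did not pass in immune cells either. Myd88 was at 20.3, 164, 196 and 129 CPM in PTX males, against 162, 234, 171 and 225 CPM in vehicle males (-0.64 ± 0.53, adjusted p = 0.672). Tirap was at 0.244, 69.4, 29.1 and 0.0852 CPM in PTX males, against 33.8, 8.53, 25.6 and 4.78 CPM in vehicle males (0.44 ± 1.44, adjusted p = 0.956). Ticam1 was at 126, 8.48, 35 and 46.0 CPM in PTX males, against 26.4, 30.1, 40.5 and 30.0 CPM in vehicle males (0.76 ± 0.81, adjusted p = 0.79). Irak3 was at 226, 33.4, 91.4 and 30.7 CPM in PTX males, against 1.75, 66.8, 26 and 75.5 CPM in vehicle males (1.17 ± 0.97, adjusted p = 0.675). For these 4 genes the groups overlapped, and no PTX library was low throughout: replicate 1 was lowest in Myd88 and highest in Ticam1 and Irak3. Over the 10 genes the median log2 fold change was 0.69, beside 0.10 over all genes tested. As a difference of mean log2 CPM, the median of all genes was -1.44 instead. The 2 measures thus disagree on the middle of all genes, and the second was not taken over the 10 genes.

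**Figure D3:**
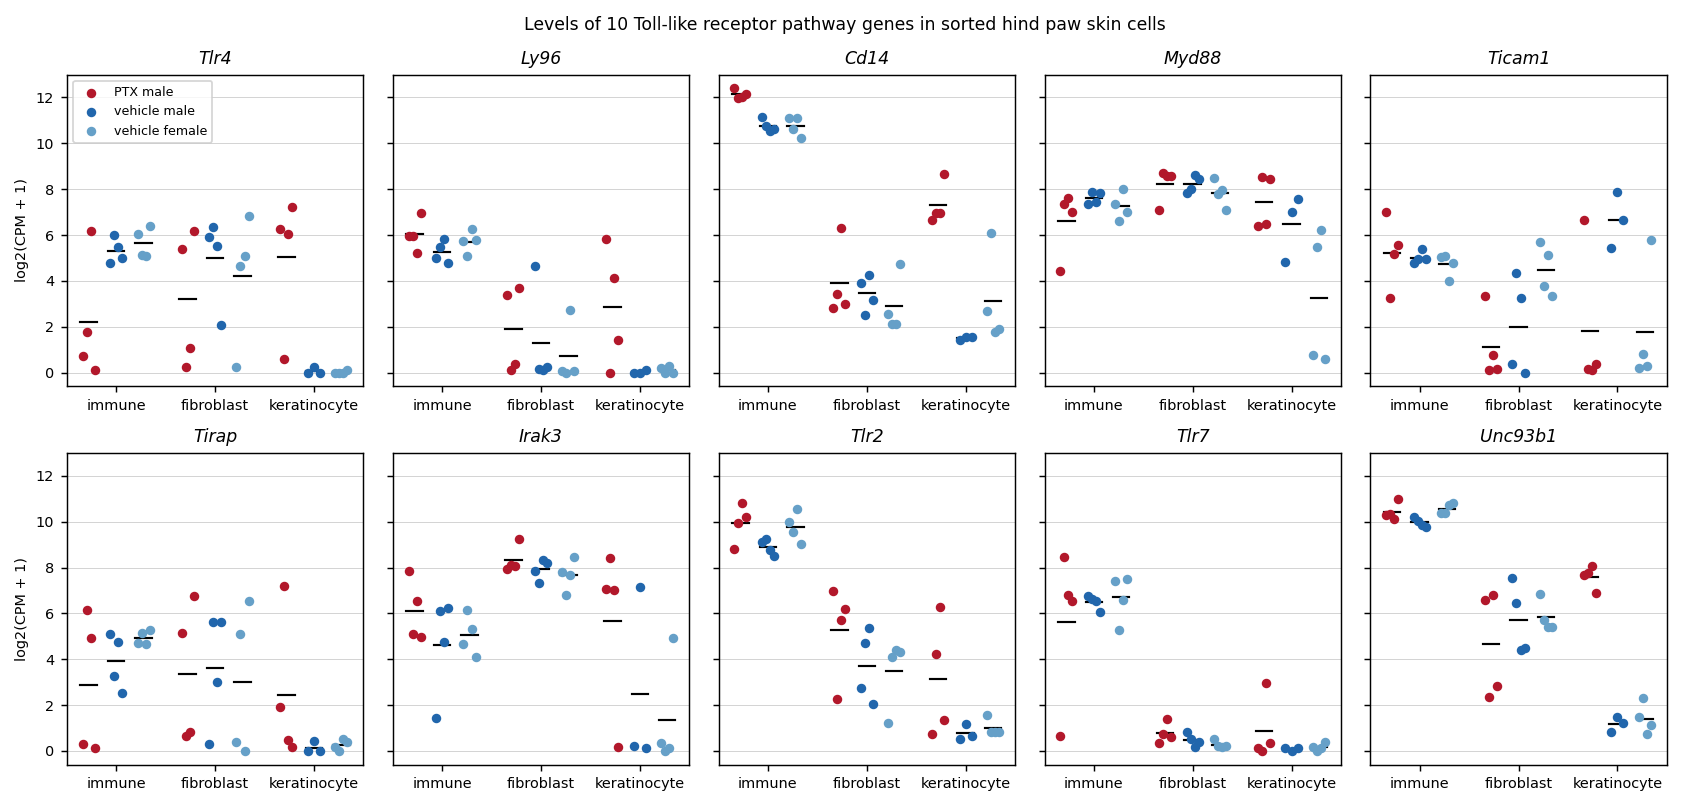
Log2(CPM + 1) of the 10 genes in the 35 libraries, scaled within each population, with 1 point for each library of PTX males, vehicle males and vehicle females and a bar at each group mean. The Cd14 panel shows all 4 immune PTX libraries above the 8 vehicle ones, and the Tlr4 panel shows the immune PTX libraries split between 0.0852 and 70.7 CPM.

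Among the pathway genes in immune cells after PTX, 9 were called higher and 1 lower over the 7 lists, where 0.956% of all genes tested were higher and 4.56% lower. Of 7 restraining genes tested 4 were higher and 0 lower, with a list median log2 fold change of 1.24. Tnfaip3, the A20 enzyme that shuts off NF-kB signalling, was at 1977 ± 360 CPM in PTX males and 634 ± 90.6 CPM in vehicle males (1.64 ± 0.18, adjusted p = 0.000748), and Nfkbia, the NF-kB inhibitor, at 4058 ± 471 and 2045 ± 247 CPM (0.99 ± 0.17, adjusted p = 0.00756). Il1rl1, the IL-33 receptor, which is also carried by mast cells, was at 221 ± 163 and 62.6 ± 23.7 CPM (1.82 ± 0.46, adjusted p = 0.0384), and Tollip was the fourth. Of 9 outputs tested 4 were higher and 0 lower, with a median of 1.47: Cxcl2 (1.47 ± 0.26, adjusted p = 0.00944), Cxcl10 (2.36 ± 0.45, adjusted p = 0.0125), Tnf (1.75 ± 0.34, adjusted p = 0.0133) and Il1b (1.75 ± 0.35, adjusted p = 0.015). Of 6 transcription factors Rel was higher (580.1 ± 124.5 and 248 ± 44.8 CPM, adjusted p = 0.018). Of 18 signalling genes 0 were higher and 1 was lower. This was Ikbkg, the regulatory subunit of the IkB kinase, at 0.057 ± 0.0768 CPM in PTX males and 35.7 ± 7.76 CPM in vehicle males (adjusted p = 0.00683). Genes with a group mean of 10 to 100 CPM were often close to absent from single PTX libraries. Ikbkg, at 0.057 CPM, lay below that band. The PTX libraries had 5956 to 8700 genes with over 10 counts, against 11000 to 12813 in vehicle males. The part of this in the Ikbkg result was not tested. The other Toll-like receptors, ligand handling and endogenous ligands had 0 of 8, 0 of 6 and 0 of 5 called.

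In fibroblasts after PTX no member passed the test. Of 9 genes tested (Tlr7 had too few counts) 0 were called by edgeR, where 0.0184% of all 10857 genes were, 0 had an unadjusted p under 0.05 (8.07% of all genes), and DESeq2 and limma-voom called 0. Tlr4 was at 40.8, 0.197, 1.12 and 72.3 CPM in PTX males, against 60.0, 81.8, 45.3 and 3.26 CPM in vehicle males (-0.73 ± 1.62, adjusted p = 0.995). Ly96 was at 9.57, 0.0987, 0.320 and 11.8 CPM in PTX males, against 24.1, 0.124, 0.0961 and 0.192 CPM in vehicle males (-0.17 ± 2.31, adjusted p = 0.997). Both genes were split within each group. In PTX males the libraries that held Tlr4, replicates 1 and 4, were also those with more Ly96, and in vehicle males 1 of the 3 libraries above 40 CPM of Tlr4 held Ly96.

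Cd14 in fibroblasts was at 6.03, 9.77, 79.2 and 7.01 CPM in PTX males, against 14.1, 4.70, 18.4 and 7.93 CPM in vehicle males, with replicate 3 of the PTX males apart from the others (1.18 ± 1.54, adjusted p = 0.98). Irak3 was at 244, 277, 264 and 600.0 CPM in PTX males, against 232, 162, 325 and 292 CPM in vehicle males (0.46 ± 0.45, adjusted p = 0.962). Myd88 was at 136, 423, 375 and 381 CPM in PTX males, against 227, 260.3, 389 and 352 CPM in vehicle males (0.10 ± 0.43, 95% interval -0.75 to 0.94, adjusted p = 0.995). For all 3 genes the groups overlapped. Tlr2 was at 125, 3.75, 52.1 and 73.0 CPM in PTX males, against 5.73, 25.1, 40.5 and 3.13 CPM in vehicle males (1.77 ± 1.39, adjusted p = 0.92). Unc93b1 was at 95.7, 4.15, 110.3 and 6.15 CPM in PTX males, against 185, 86.0, 20.1 and 21.5 CPM in vehicle males (-0.53 ± 1.12, adjusted p = 0.995). Ticam1 and Tirap had 3 and 2 PTX libraries under 1 CPM, against 2 and 1 vehicle male libraries (adjusted p = 0.985 and 0.995). In the 7 pathway lists 0 genes were called in fibroblasts, and pan-immune markers summed to 13.2 to 50.8 CPM in PTX males and 8.98 to 49.7 CPM in vehicle males.

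In keratinocyte libraries the receptor parts were mostly low without PTX and had higher means with it, in libraries that also held markers of other cells. The PTX libraries were uneven, and no difference passed the edgeR test against vehicle males. Tlr4 was at 75.5, 0.517, 64.2 and 149.7 CPM in PTX males, at 0, 0.181 and 0 CPM in vehicle males and at 0, 0, 0 and 0.0998 CPM in vehicle females. Every PTX library was above every vehicle library, although replicate 2 held little. The vehicle males had 1 count in all, so that the ratio of pooled counts, relative to library sizes scaled with TMM factors, was 1950 (95% counting interval 349 to 76900). The test did not pass (adjusted p = 0.203). Cd14 was at 101, 122, 123 and 398 CPM in PTX males, 1.66, 1.99 and 1.95 CPM in vehicle males and 5.43, 67.2, 2.38 and 2.69 CPM in vehicle females. It did not overlap either (ratio 91.4, 69.5 to 123; log2 fold change 6.63 ± 2.11, adjusted p = 0.176). Unc93b1 was at 206, 215, 263 and 119 CPM in PTX males, against 0.789, 1.81 and 1.30 CPM in vehicle males, again without overlap (ratio 177, 126 to 257; 7.26 ± 1.97, adjusted p = 0.0864).

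By edgeR 0 of the 8 genes tested were called in keratinocytes (Tirap and Tlr7 had too few counts), where 1.45% of all 10939 genes were, and 4 had an unadjusted p under 0.05, beside 14.8% of all genes. PTX males lay above vehicle males without overlap in 3 members and in 9.15% of all genes tested. DESeq2 called Tlr4 (adjusted p = 0.000169) and Unc93b1 (adjusted p = 1.32e-09), and limma-voom called Unc93b1 (adjusted p = 0.0295). With vehicle males and females together as controls edgeR called Tlr4 (adjusted p = 0.0188), Cd14 (adjusted p = 0.0433) and Unc93b1 (adjusted p = 0.00467). The counting intervals cover counting error only, not the spread between libraries.

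The markers of other cells in these libraries were as follows. Macrophage markers summed to 1110 to 3539 CPM in PTX males and 41.0 to 50.2 CPM in vehicle males, and 2 of the 9 tested were called higher. Fibroblast markers (5 of 8 called higher) and endothelial markers (6 of 8; 1829 to 2799 and 0.789 to 381 CPM summed) moved the same way. The 8 keratinocyte markers summed to 3721 to 12496 CPM in PTX males and 24100 to 29504 CPM in vehicle males, with 5 called lower. B cell markers were at 0 in all keratinocyte libraries. Replicate 2 of the PTX males, with 0.517 CPM of Tlr4, had 947 CPM of pan-immune and 14634 CPM of fibroblast markers, where the other 3 had 670 to 1020 CPM and 15685 to 20352 CPM. The part of these markers in the result was not tested.

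The other members in keratinocytes were uneven. Ly96 was at 55.7, 0, 16.7 and 1.71 CPM in PTX males, against 0, 0 and 0.0928 CPM in vehicle males, where the vehicle males had 1 count in all (ratio 587, 105 to 23200; adjusted p = 0.27). Tlr2 was at 0.680, 18, 76.1 and 1.57 CPM in PTX males, against 0.438, 1.26 and 0.557 CPM in vehicle males (4.98 ± 2.77, adjusted p = 0.458). Replicate 1 held the most Ly96 of the PTX males and the least Tlr2. Myd88 was at 82.2, 369, 89.0 and 345 CPM in PTX males, against 27.6, 126 and 188 CPM in vehicle males (0.96 ± 1.47, adjusted p = 0.97). Ticam1 was at 99.2, 0.129, 0.0800 and 0.285 CPM in PTX males, against 42.7, 232 and 99.2 CPM in vehicle males (-2.32 ± 2.44, adjusted p = 0.887). It was the member with the lower mean in PTX males, and the vehicle females were at 0.139, 0.782, 0.217 and 53.8 CPM. Irak3 was at 131, 336, 130.2 and 0.142 CPM in PTX males, against 0.175, 141 and 0.0928 CPM in vehicle males (1.66 ± 2.45, adjusted p = 0.967). Of the pathway lists, Il6 (858 ± 677 CPM in PTX males and 0.423 ± 0.116 CPM in vehicle males, n = 3, adjusted p = 0.000164), Ccl2 (407 ± 194 and 0.359 ± 0.178 CPM, adjusted p = 0.00179) and Nfkbia (2837 ± 825 and 492 ± 83.3 CPM, adjusted p = 0.0304) were called higher, and 0 genes lower.

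**Figure D4:**
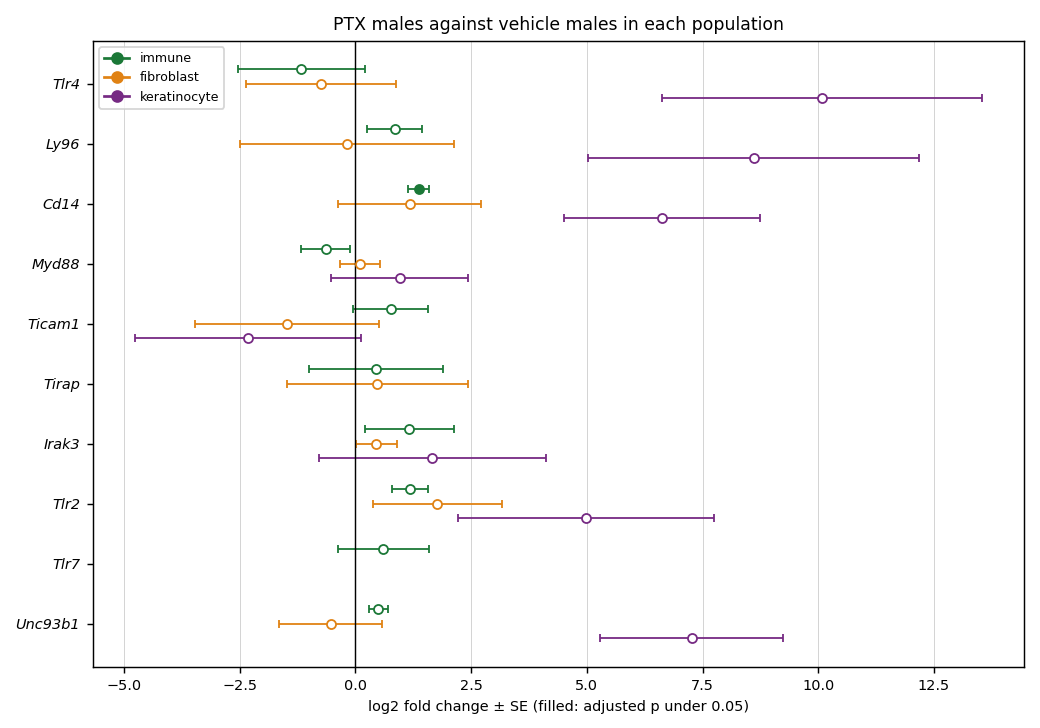
Log2 fold changes ± SE of PTX males over vehicle males for the genes tested in immune, fibroblast and keratinocyte libraries, with filled points where the adjusted p was under 0.05. Cd14 in immune libraries, at 1.36, is the filled point, and the keratinocyte points of Tlr4, Ly96, Cd14 and Unc93b1 lie from 6.63 to 10.08 with wide errors.

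The PTX changes were set against each other with an interaction term, and both comparisons use the same immune libraries. Between immune cells and fibroblasts 0 of the 10 genes were called by edgeR (3.51% of all 13329 genes), with 0 at an unadjusted p under 0.05 (17.3% of all genes) and 0 by DESeq2 and limma-voom. For Cd14 the change in immune cells minus that in fibroblasts was 0.38 ± 0.90 on the log2 scale (95% interval -1.38 to 2.13; adjusted p = 0.947). The rise of Cd14 in immune cells was thus not shown to differ from its change in fibroblasts. Between immune cells and keratinocytes 4 genes were called lower (9.26% of all 13829 genes), where a negative value means a smaller change in immune cells. These were Unc93b1 (-6.58 ± 0.68, adjusted p = 2.97e-07), Cd14 (-5.11 ± 1.01, adjusted p = 0.00189), Tlr4 (-11.25 ± 3.04, adjusted p = 0.0216) and Ly96 (-7.60 ± 2.48, adjusted p = 0.0499). These calls depended on the fit. With limma-voom those for Unc93b1 (-6.97, adjusted p = 0.164), Cd14 (-4.66, adjusted p = 0.774) and Ly96 (-4.94, adjusted p = 0.207) were lost, and with a replicate block those for Tlr4 (-12.90, adjusted p = 0.121) and Ly96 (-7.99, adjusted p = 0.123). With vehicle females as controls the Cd14 difference was -2.01 (adjusted p = 0.199) and that of Ly96 -6.74 (adjusted p = 0.0705). The sizes for Tlr4 and Ly96 depend on how a group with 1 count is fitted. Their calls were lost in 2 and 13 of the 15 fits without 1 library, those for Tlr4 without vehicle male keratinocyte replicate 1 (adjusted p = 0.0575) or 3 (adjusted p = 0.0684).

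Over all 35 libraries the 3 receptor parts did not run together equally. Ly96 and Cd14 had a Spearman correlation of 0.783, while that of Tlr4 was 0.388 with Ly96 and 0.313 with Cd14, as descriptions across libraries that share sort and depth. The genes whose CPM ran most like Cd14, among 11657 genes, were H2-Ab1, a class II antigen-presenting chain (0.962), Gp49a (0.96), Pld4 (0.949), Laptm5 (0.948) and Cd83 (0.942). For Tlr4 they were the cofilin phosphatase Ssh1 (0.722), Adamtsl4 (0.704), the kinase gene Map3k8 (0.703), the collagen-degrading protease gene Ctsk (0.677) and Nqo2 (0.677). No gene ran as closely with Tlr4 as Laptm5 or H2-Ab1 did with Cd14.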

How the data were processed

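RNA sequencing was done on 35 sorted libraries in 9 groups. The deposited values were raw gene counts, made by the authors with bcl2fastq, TopHat2 and HTSeq on mm9, per the submitters' processing notes (versions, annotation and strand setting not given in the sources used here). A stranded kit was used, per the labels' protocols. HTSeq's summary lines name no gene and were left out of library sizes. Per group, unique reads outside genes averaged 12.06% to 25.52% and reads without a unique place 35.92% to 55.26%. Gene counts per library limit precision as given with the results, and counting intervals (95%, exact) cover counting error only.

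Each population was fitted alone for PTX, and vehicle libraries of both sexes together for the resting comparisons. The test was edgeR 4.0.16 quasi-likelihood (R 4.3.3), with filterByExpr at a minimum count of 10, TMM factors, and Benjamini-Hochberg adjustment over all genes tested, called at 0.05. Differences between PTX effects were interaction terms. The scripts were tested on simulated data. Alternatives were RLE scaling, library totals, no filter, DESeq2 1.42.0, limma 3.58.1 voom, a replicate block, other controls or sexes, and leaving out each library.

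The members and lists were chosen with earlier results of these data known. All 10 members were described, with up to 3 passing genes of lowest p per list. Tollip and Il1b after PTX, and Cxcl1 and the fourth endogenous ligand at rest, were named beyond this after their values were seen.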

Additional observations from a re-analysis of the deposited data

Results flagged for a closer look

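In 17 of the 74 groups of 4 libraries, 1 library of a member stood apart from the other 3 by Dixon's criterion. Its chance rate of about 1 in 20 holds for normally distributed values and was not worked out for CPM. Over all genes 1 library stood apart in 25.1% of such groups (24347 of 96957), so members and other genes alike were uneven between libraries. The values below are CPM within each population.

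For Tlr4, immune PTX male replicate 3 had 70.7 CPM, against 0.0852 to 2.41 in the others. For Ly96, fibroblast vehicle male replicate 1 had 24.1 CPM (others 0.0961 to 0.192) and fibroblast vehicle female replicate 3 had 5.56 CPM (others 0 to 0.0549). For Cd14, fibroblast PTX male replicate 3 had 79.2 CPM (others 6.03 to 9.77), keratinocyte PTX male replicate 4 had 398 CPM (others 101 to 123), fibroblast vehicle female replicate 4 had 26.1 CPM (others 3.37 to 4.83) and keratinocyte vehicle female replicate 2 had 67.2 CPM (others 2.38 to 5.43). That keratinocyte library also had 166 CPM of macrophage markers in sum, the highest of its group. For Myd88, fibroblast PTX male replicate 1 was lowest with 136 CPM (others 375 to 423).

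For Ticam1, fibroblast PTX male replicate 1 had 9.10 CPM (others 0.0987 to 0.720), keratinocyte PTX male replicate 1 had 99.2 CPM (others 0.0800 to 0.285) and keratinocyte vehicle female replicate 4 had 53.8 CPM (others 0.139 to 0.782). Irak3 was at 600.0 CPM in fibroblast PTX male replicate 4 (others 244 to 277) and at 29.6 CPM in keratinocyte vehicle female replicate 4 (others 0 to 0.279). Tirap was at 143 CPM in keratinocyte PTX male replicate 2 (others 0.142 to 2.82), and Tlr7 at 6.88 CPM in replicate 3 of that group (others 0 to 0.285). Tlr2 was at 1.95 CPM in keratinocyte vehicle female replicate 1 (others 0.758 to 0.798), and Unc93b1 at 113 CPM in fibroblast vehicle female replicate 1 (others 41.7 to 51.0).

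The PTX effect differed between immune cells and keratinocytes by the interaction test for 4 members, with the immune effect minus the keratinocyte effect at -11.25 for Tlr4, -7.60 for Ly96, -5.11 for Cd14 and -6.58 for Unc93b1 on the log2 scale. Of these 4 calls, limma-voom kept 1 (Tlr4), losing Unc93b1 (adjusted p = 0.164) among others, and the replicate block kept 2 (Cd14 and Unc93b1). The keratinocyte libraries of PTX males also held markers of other cells, whose part in these differences was not tested.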

How the results depend on the processing

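The rise of Cd14 in immune cells stayed past the threshold under all alternatives run (log2 fold change 1.0 to 1.41 with other settings and 1.22 to 1.45 without 1 library). Over all members, 556 of the values recomputed with other settings kept direction and side of the threshold, 37 changed sign, 23 passed newly and 24 no longer passed; without 1 library these were 908, 42, 10 and 30. The replicate numbers did not pair the libraries (correlation of same-numbered deviations -0.064 to 0.138). With the replicate block, Cd14 in immune cells had 1.38 (adjusted p = 0.0145), and the counts of genes called were 148 for PTX in immune cells, 220 for the interaction of immune and fibroblast and 573 for that of immune and keratinocyte. The causes of the changes given here were not tested.

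The number of genes called over the whole table moved with the tool, the controls and the sexes used. For PTX in immune cells (669) DESeq2 called 1870, voom 38, no filter 407 and vehicle females as controls 213. For PTX in fibroblasts (2) DESeq2 called 403, voom 0, no filter 4, and RLE, library totals and the 2 groups alone 1 each. For PTX in keratinocytes (159) DESeq2 called 1339, voom 339 and both vehicle sexes as controls 586. For the immune and fibroblast interaction (468) the counts were 1758 with DESeq2, 0 with voom and 61 with vehicle females; for immune and keratinocyte (1328) they were 3135, 698 and 783. At rest, males alone and females alone gave 908 and 1538 for immune over fibroblast (2985; voom 4838), 1969 and 2453 for immune over keratinocyte (4533), and 2012 and 2171 for fibroblast over keratinocyte (4385). Without 1 library the counts ran from 230 to 954 (PTX immune), 0 to 4 (fibroblast), 84 to 148 (keratinocyte), 299 to 527 (immune and fibroblast interaction) and 601 to 1371 (immune and keratinocyte interaction).

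Signs changed in members that did not pass, as log2 values. In PTX immune, Ticam1 had -0.21 (voom), Tirap -0.59 (voom), -0.48 (block) and -0.29 (vehicle females), Tlr7 -0.53 (voom) and Unc93b1 -0.11 (vehicle females). In PTX fibroblast, Ly96 had 0.25 (library totals), 3.85 (voom), 0.87 (block), 1.94 (vehicle females) and 0.88 (both sexes), Myd88 -0.35 (voom) and Tirap -0.11 (voom) and -0.0047 (block). In PTX keratinocyte, Ticam1 had 0.85 (vehicle females). At rest, immune over fibroblast gave Tlr4 0.11 (library totals), 0.75 (voom) and 0.063 (females alone), Tirap 1.46 (voom) and 0.92 (block) and Ticam1 -0.28 (females alone). Immune over keratinocyte gave Ticam1 1.82 (voom), 0.35 (block) and 1.32 (females alone). Fibroblast over keratinocyte gave Ticam1 0.34 (voom) and 1.60 (females alone) and Cd14 -0.43 (females alone). In the immune and fibroblast interaction, Cd14 had -0.11 (library totals) and -0.00039 (vehicle females), Ly96 -3.12 (voom) and -1.44 (vehicle females), and Tirap -0.30 (library totals), -0.056 (no filter), -0.42 (voom), -0.35 (block), -0.48 (vehicle females) and -0.0045 (the 2 groups alone).

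Without 1 library, signs changed within these ranges. In PTX immune they were -0.11 to 1.13 for Ticam1, -0.88 to 0.92 for Tirap and -0.43 to 1.01 for Tlr7. In PTX fibroblast they were -0.60 to 1.59 for Cd14, -0.84 to 5.24 for Ly96, -0.021 to 0.36 for Myd88, -1.11 to 0.98 for Tirap and -1.13 to 0.35 for Unc93b1. At rest they were -0.38 to 0.40 for Tlr4 and -0.77 to 0.22 for Tirap in immune over fibroblast, and for Ticam1 -0.31 to 2.58 in immune over keratinocyte and -1.55 to 1.73 in fibroblast over keratinocyte. In the immune and fibroblast interaction they were -0.33 to 1.96 for Cd14, -0.28 to 1.14 for Irak3, -4.49 to 1.58 for Ly96, -1.46 to 1.47 for Tirap, -4.65 to 0.51 for Tlr4 and -1.49 to 0.42 for Tlr7. In the immune and keratinocyte interaction they were -8.95 to 0.46 for Irak3 and -4.84 to 0.017 for Tlr7.

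TMM, RLE and library totals put the median gene at -1.44, -1.41 and -1.73 in PTX against vehicle male immune libraries (difference of mean log2 CPM). The median edgeR log2 fold change with TMM was 0.10. Depth limits Tlr4, Ly96, Tirap and Tlr7 in vehicle keratinocytes, where differences rest on 10 or fewer counts.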
